A study of Mus musculus with 8 samples.

Results

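The proteasome genes were taken as the protein-coding genes of GENCODE vM21 whose whole symbol is Psma, Psmb, Psmc, Psmd, Psme or Psmg followed by a number, without Psmb8 and Psmb9. This rule gave 45 of 21938 protein-coding genes, on 16 chromosomes. The proteasome degrades proteins that carry ubiquitin chains. Its 20S core is a barrel of alpha and beta rings with the proteolytic sites on the inner face of the beta rings, and the 19S cap recognises, unfolds and feeds substrates through a ring of ATPases and a set of non-ATPase subunits. Other activators can replace the cap, dedicated chaperones assemble the particle, and the transcription factor NFE2L1 raises transcription of the subunit genes when proteasome activity is low.

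ChIP-seq of H3K56ac, a histone acetylation mark found at active promoters and enhancers, was carried out on muscle stem cells (MuSCs) sorted freshly from the muscle of C57BL/6 mice. The labels say only Control, and the paper calls the MuSCs of this ChIP-seq wild type. Elsewhere it gives Sirt6 fl/fl mice without the Cre as the control for Sirt6mKO. In Sirt6mKO animals both Sirt6 alleles were floxed (Sirt6 fl/fl) and deleted in the skeletal muscle lineage by Pax7-ICNCre, a Cre recombinase driven by the Pax7 promoter, which removes a deacetylase of this mark. The 8 libraries formed 4 groups of 2, with an H3K56ac and an input group for each genotype. The data analysed here were a single merged list of 105600 peak intervals that names no genotype, replicate, read depth or strength, so no test was possible and no Sirt6mKO promoter was compared with a Control promoter.

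The list was first checked against marker genes. All 6 MuSC markers examined (Pax7, Myf5, Vcam1, Itga7, Cd34 and Calcr) had a promoter peak, with a median width of 16656.5 bp. Of 8 genes of other cells in muscle, Pdgfra, Pecam1, Myh1 and Myh4 had promoter peaks of 1024 to 4396 bp, and Ly6a, Cdh5, Ptprc and Cd68 had none. Whether the peaks of those 4 genes came from other cells was not tested.

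H3K56ac was found at the promoters of nearly all proteasome genes. A peak within 1 kb of an annotated transcription start site (TSS) was present at 44 of the 45 genes, a share of 97.8%, whereas 65.4% of all protein-coding genes had one. The exception was Psma8, the testis variant of an alpha subunit. A TSS lay inside a peak at the same 44 genes, compared with 62.1% of protein-coding genes. When the TSS of the principal coding transcript alone was considered, it lay inside a peak at 42 genes, against a background of 57.4%. The share was thus high for any definition of the start, but shares in that range were also reached by other ubiquitous complexes. Promoter peaks were present at 80 of 83 ribosomal protein genes, at all 10 COP9 signalosome genes, at all 12 genes of translation initiation factor eIF3 and at all 7 genes of the CCT chaperonin that the annotation gives as protein-coding.

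Peaks at proteasome promoters were of ordinary width. The widest promoter peak of each gene measured 913 to 9804 bp, with a median of 3390.5 bp and quartiles of 2745.5 and 4411.2 bp. Over the 14341 protein-coding genes with a promoter peak the median was 3413 bp and the quartiles 2251 and 4910 bp, and 22 of the 44 proteasome genes lay above that median. A width under 1 kb was found at 1 gene (2.27%, all coding genes 6.65%). A width of at least 2 kb was reached by 39 genes (88.6%, all coding genes 79.7%), a width of at least 5 kb by 8 genes (18.2%, all coding genes 23.9%), and a width of at least 10 kb by none, against 3.72% of coding genes. Ribosomal protein genes had a median of 3645.5 bp, COP9 genes 3519 bp, eIF3 genes 4102 bp and CCT genes 4319 bp.

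**Figure D1:**
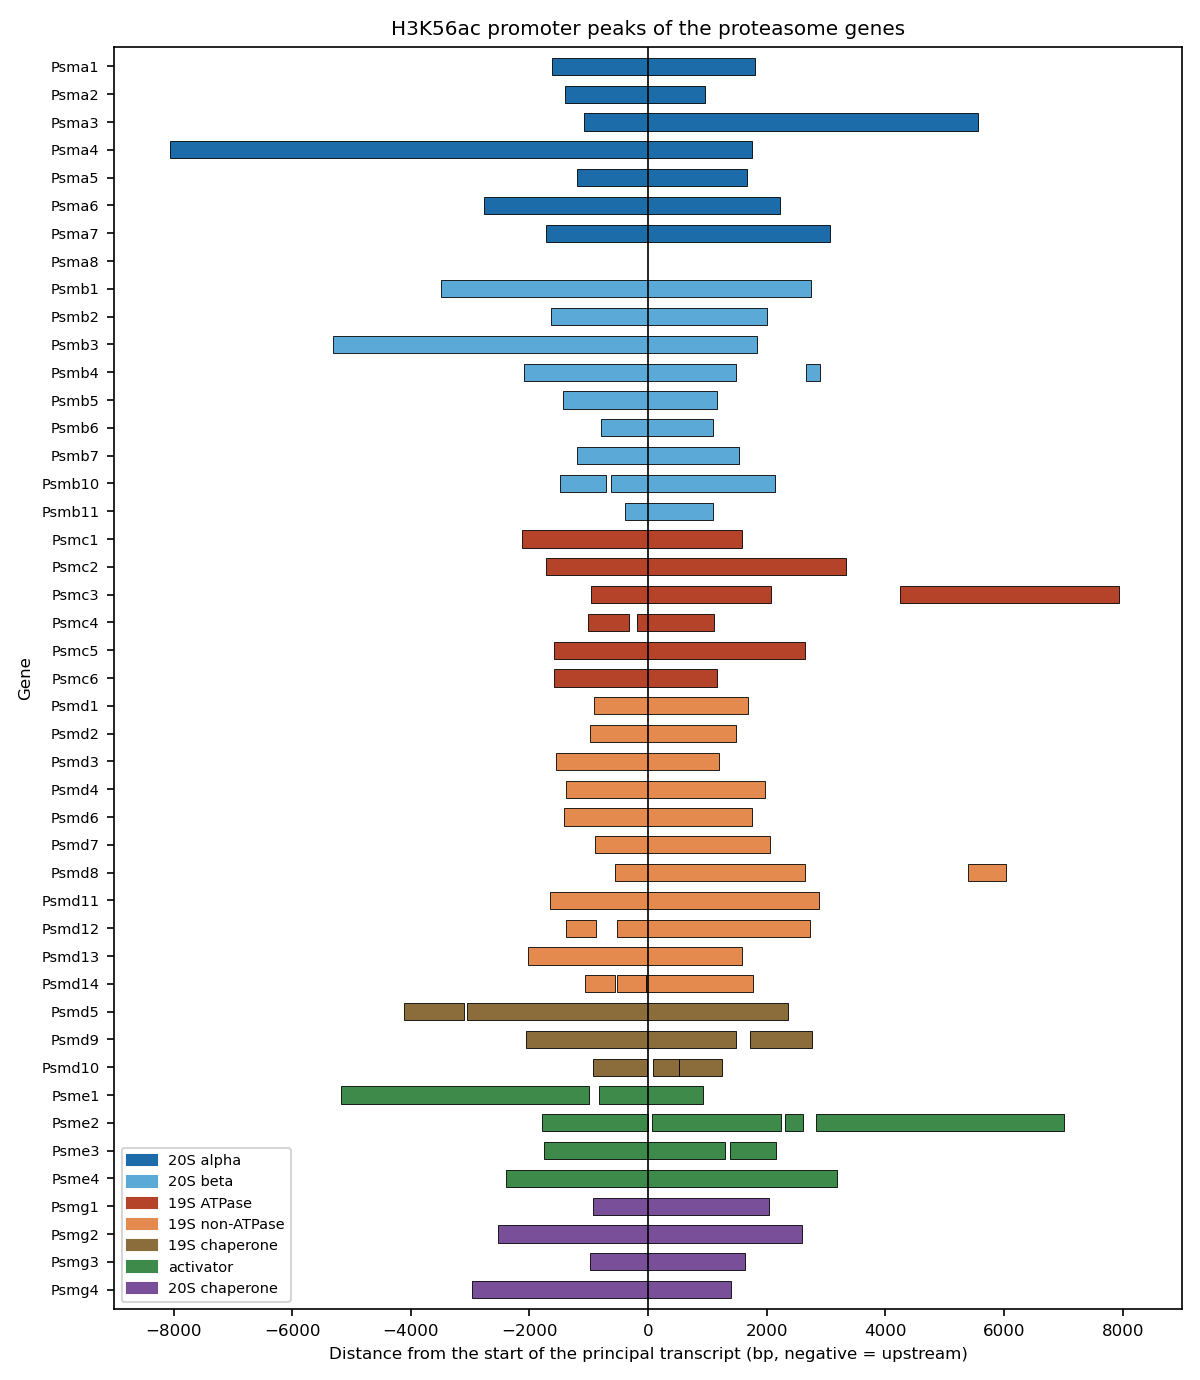
H3K56ac promoter peaks of the 45 proteasome genes, drawn as bars by distance in bp from the start of the principal coding transcript (vertical line, negative values upstream) and coloured by role. A bar crosses the start in 42 genes, Psma8 has no bar, gaps lie over the starts of Psmd10 and Psme2, and the second peak of Psmd1 and the last of Psmd14 lie beyond the right edge.

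The peaks spanned the start rather than ending at it. Of the 2 kb centred on the principal start, 27 genes (60.0%) were covered completely and 37 to at least 95%, whereas complete cover was found at 32.5% of all coding genes and at 49.7% of those with a promoter peak. The peak over the principal start reached a median of 1491 bp upstream (35 to 8055 bp) and 1759.5 bp downstream (927 to 5561 bp). Across all coding genes with a covered start these medians were 1324 and 1800 bp. The downstream arm was the longer one in 27 of 42 proteasome genes (64.3%), close to the 65.3% of all coding genes.

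The alpha ring, whose subunits form the gate of the core, held the widest and the only missing peak. Psma4 had the widest peak of the set, 9804 bp at chr9:54942735-54952538, which extended 8055 bp upstream into Hykk and covered exons 1 to 3 of Psma4. The peak of Psma3 was 6637 bp wide (chr12:70973546-70980182) and extended in the other direction, 5561 bp into the gene. These 2 peaks were thus wide on opposite sides of the start. Psma6 had a peak of 4999 bp over its principal start, and none within 1 kb of the 5′ end of its gene record, which lies 14553 bp upstream. The widths of Psma7, Psma1, Psma5 and Psma2 were 4780, 3425, 2871 and 2356 bp. The 7 alpha genes with a peak had a median width of 4780 bp, and each had exactly 1 promoter peak.

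Psma8 encodes the alpha subunit that takes the place of PSMA7 in the proteasome of male germ cells. None of its 6 annotated starts lay within 1 kb of a peak, and no base of its principal transcript was covered. The nearest interval ended 22082 bp upstream and was a 4616 bp peak at the start of the neighbouring gene Ss18. Psma7, its counterpart in other tissues, had complete cover of the 2 kb around its start and a peak of 4780 bp over exons 1 and 2. Both promoters were rich in CpG. The ratio of observed to expected CpG dinucleotides from 250 bases before to 50 after the start was 0.764 at Psma8 and 0.962 at Psma7, and 95.5% of the 7194 coding promoters with a ratio of at least 0.75 had a peak.

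The beta genes, which include the catalytic subunits, had the narrowest peaks of the core. Their median width was 2770 bp, and all 9 had a promoter peak. Psmb3 and Psmb1, both structural, were the wide exceptions with 7150 bp (chr11:97698083-97705232) and 6237 bp (chr17:15495551-15501787). Each of these intervals also held the start of another coding gene, Pcgf2 and Tbp. The caspase-like subunit gene Psmb6 had a peak of 1889 bp (chr11:70524600-70526488), over exons 1 to 3 of a transcript that spans only 2264 bp. Psmb2, Psmb4, Psmb7 and Psmb5 had peaks of 3639, 3578, 2726 and 2588 bp. Psmb4 had a second interval of 238 bp near another annotated start at the distal end of the gene.

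Of the 3 catalytic beta subunits that replace others in immune cells, the rule retains only Psmb10. Psmb10 substitutes for Psmb7, the trypsin-like subunit. Its peak of 2770 bp was as wide as the 2726 bp of Psmb7 and was separated from a second interval of 787 bp upstream by 74 bases. The 2 kb around the start were covered to 96.3% at Psmb10 and completely at Psmb7. Psmb8 and Psmb9, the other two immune subunits, had promoter peaks of 1791 and 2563 bp. A promoter peak was therefore present at all 3 genes of the immunoproteasome.

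Psmb11, the thymus-specific subunit that replaces Psmb5 in cortical epithelial cells, also carried a peak. It was 1469 bp wide, lay over the single exon of the principal transcript (chr14:54624928-54626396, from 382 bp upstream to 1086 bp downstream of the start) and covered 69.1% of the 2 kb window. Psmb5 lies next to it, with principal starts 7288 bp apart, and had a separate peak of 2588 bp and complete cover. The Psmb11 gene record begins 3877 bp further upstream, and no peak lay within 1 kb of that end. Further intervals of 633 and 1792 bp overlapped the Psmb11 transcript, the second of them reaching into Cdh24.

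The promoters of Psmb10 and Psmb11 were poor in CpG, unlike that of the testis gene Psma8, which had a ratio of 0.764. Psmb11 had the lowest CpG ratio of all 45 genes, 0.165, and Psmb10 the next lowest, 0.249, whereas Psmb5 had 1.0 and Psmb7 0.487. Among all coding genes with a ratio under 0.25 only 22.7% had a promoter peak, so both genes belonged to the smaller share of CpG-poor promoters that carried one. The 150 bases upstream of the principal start of each gene are shown to compare the pairs, 5′ to 3′ on the strand of the gene (GRCm38, the assembly of mm10), with CpG dinucleotides in capitals. The stretches are chr14:54618023-54618172 on the minus strand for Psmb5, chr14:54625160-54625309 on the plus strand for Psmb11, chr2:38644088-38644237 on the minus strand for Psmb7 and chr8:105938445-105938594 on the minus strand for Psmb10.
Psmb5: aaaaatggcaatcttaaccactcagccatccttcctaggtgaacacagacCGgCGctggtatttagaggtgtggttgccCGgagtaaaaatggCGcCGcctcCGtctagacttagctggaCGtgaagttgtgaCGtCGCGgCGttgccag
Psmb11: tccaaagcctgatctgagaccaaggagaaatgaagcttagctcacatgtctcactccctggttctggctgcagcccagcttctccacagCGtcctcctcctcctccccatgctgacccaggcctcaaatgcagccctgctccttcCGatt
Psmb7: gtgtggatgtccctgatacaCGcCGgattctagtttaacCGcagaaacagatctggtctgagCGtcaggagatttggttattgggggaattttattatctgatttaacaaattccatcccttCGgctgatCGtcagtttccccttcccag
Psmb10: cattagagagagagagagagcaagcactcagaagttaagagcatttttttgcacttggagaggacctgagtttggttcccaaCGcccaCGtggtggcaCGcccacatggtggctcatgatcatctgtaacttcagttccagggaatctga
These stretches held 11 CpG dinucleotides at Psmb5, 2 at Psmb11, 6 at Psmb7 and 3 at Psmb10. Over the whole set the median CpG ratio was 0.784, close to the 0.767 of all coding genes whose principal start lay in a peak and above the 0.553 of all coding genes. The median GC content was 57.3%, that of all coding genes 55.7% and that of coding genes with the principal start in a peak 61.0%.

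**Figure D2:**
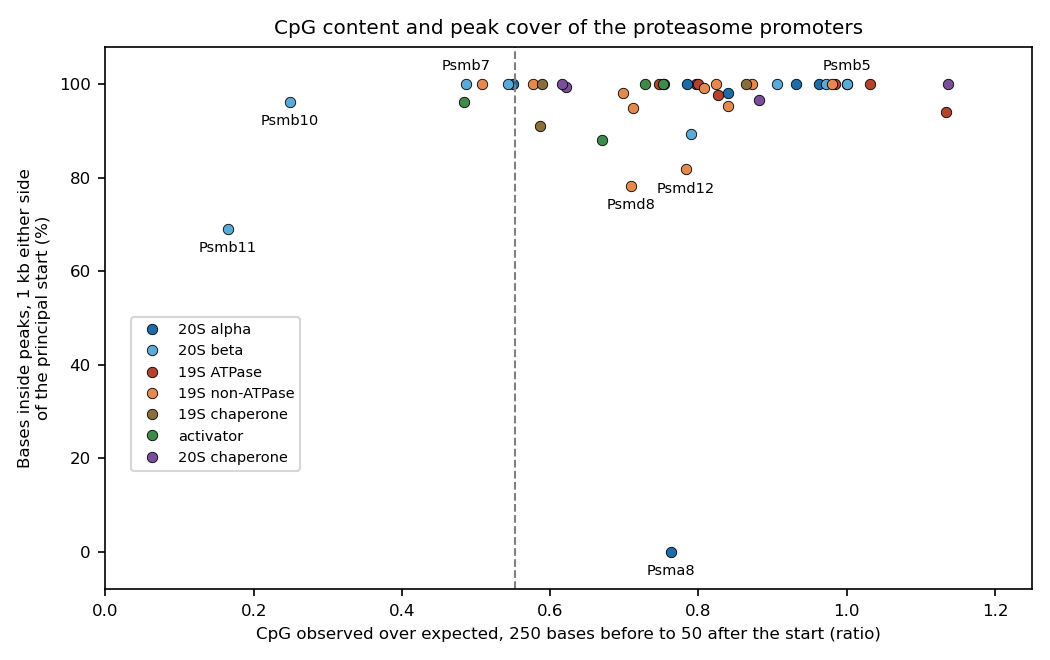
CpG ratio of each proteasome promoter (horizontal axis, observed over expected) against the share of the 2 kb around its principal start that lay inside peaks (vertical axis, %), 1 point per gene, coloured by role, with the median CpG ratio of all protein-coding promoters as a dashed line. Psmb11 and Psmb10 lie far to the left with cover of 69.1% and 96.3%, whereas Psma8, at a ratio of 0.764, has no cover.

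The 6 ATPases of the 19S base, which form the ring that unfolds substrates, all had a promoter peak, with a median width of 3696 bp. Psmc2 had the widest over its start, 5048 bp, and Psmc5, Psmc1 and Psmc6 had 4233, 3702 and 2760 bp. Psmc3 carried 2 intervals of similar size, which together covered 60.08% of its principal transcript. The first, of 3034 bp, lay over the principal start. The second, of 3690 bp, ran from 4243 to 7932 bp downstream, across the end of this 5424 bp transcript, within 1 kb of another annotated start of the gene. Psmc4 had one of the narrowest peaks of the set, 1302 bp at chr7:28048994-28050295, and an interval of 697 bp lay upstream of it behind a gap of 119 bases. The narrow width of Psmc4 accompanied one of the highest CpG ratios in the set, 1.13.

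The 11 non-ATPase subunits of the 19S cap all had a promoter peak. The widths ran from 1799 to 4550 bp with a median of 3180 bp, and 10 of the 11 fell between 2462 and 4550 bp. The largest scaffold subunits, Psmd1 and Psmd2, had peaks of 2597 and 2462 bp. Psmd4, a ubiquitin receptor, had 3356 bp, and Psmd11, a lid subunit, had the widest peak of the group with 4550 bp. The widths of Psmd3, Psmd6, Psmd7, Psmd8, Psmd12 and Psmd13 ranged from 2752 to 3604 bp.

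Psmd14, which encodes the deubiquitinase of the lid, was the narrow exception. Its promoter was covered by 3 intervals of 508, 488 and 1799 bp that were separated by only 33 and 3 bases, and the interval over the start (chr2:61711659-61713457) began 35 bp upstream of it. The 2 kb around the start were covered to 98.2%. The single interval was thus narrow although nearly the whole window was covered. An additional interval of 774 bp lay 52146 bp downstream of the principal start, at another annotated start inside the gene.

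The 3 chaperones of 19S assembly differed widely, from 913 to 5408 bp. Psmd5 had a peak of 5408 bp, separated by 46 bases from an interval of 1025 bp that also contained the start of Cutal. Psmd9 had a peak of 3541 bp over its principal start. Its gene record begins 58777 bp upstream of that start, and no peak lay within 1 kb of that end. Psmd10, also known as gankyrin and the only member on chromosome X, had the narrowest peak of the set, 913 bp at chrX:140956707-140957619.

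At Psmd10 the principal start lay between peaks. The interval upstream ended 18 bp before the start, the next began 89 bp after it, and a further interval of 727 bp followed after 3 bases. The same arrangement was found at Psme2, where the intervals ended 8 bp before and began 70 bp after the principal start. These were the 2 such genes of 45, and 1.16% of all coding genes had their principal start between peaks. On chromosome X the median promoter peak of coding genes was 1830.5 bp, on autosomes 3466 bp, and starts between peaks made up 2.53% and 1.11% of the coding genes. Whether the chromosome had a part in the width at Psmd10 was not tested. Several intervals at a single promoter were otherwise no peculiarity, as 14 of the 44 genes had 2 or more promoter peaks (31.8%), against 32.7% of the coding genes with a promoter peak.

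The activators bind the ends of the core in place of the 19S cap. Psme1 and Psme2 encode the 2 subunits of the interferon-inducible PA28, Psme3 its nuclear relative, and Psme4 the activator PA200. Psme4 had a single peak of 5589 bp (chr11:30769326-30774914) and Psme3 one of 3047 bp, followed after 84 bases by an interval of 781 bp. Psme1 had an interval of 1754 bp over its principal start, and the wider one counted for it, 4185 bp, ended 995 bp upstream and held the start of Fitm1. At Psme2 the 4 intervals within reach of its starts measured 1789, 2173, 306 and 4181 bp and covered 90.24% of the transcript, the highest share of the set. The widest of these lay at the end of the gene and held the start of Emc9. For both PA28 genes the widest interval thus lay at the start of a neighbouring gene.

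The 4 chaperones of 20S assembly were all marked by a single interval. Psmg2 had 5123 bp, Psmg4 4365 bp, Psmg1 2981 bp and Psmg3 2626 bp. Of these, Psmg2 had the highest CpG ratio of the whole set, 1.14.

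**Figure D3:**
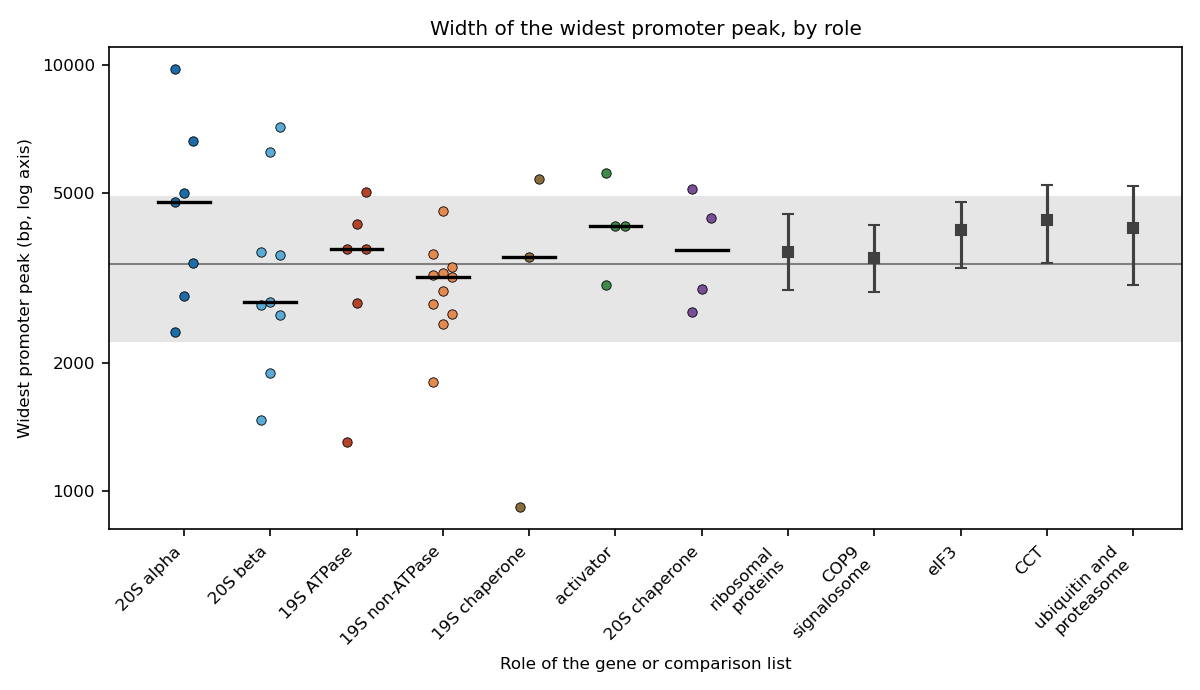
Width of the widest promoter peak in bp on a log axis for each proteasome gene (points, with bars for the median of each role), beside 5 comparison lists (squares, median with quartiles). The grey band and line give the quartiles and the median of all protein-coding genes with a promoter peak. Every role has points on both sides of the line, and the lowest point is Psmd10 at 913 bp.

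Divergent gene pairs were examined next. A partner was a protein-coding gene on the other strand whose 5′ end lay up to 1 kb upstream, without overlap. Such partners were found at 8 of the 45 genes (17.8%), against 6.78% of all coding genes and 10.8% of those whose principal start lay in a peak. The share was 9.64% for ribosomal protein genes, and 2 of 10 COP9 genes, 2 of 12 eIF3 genes and 2 of 7 CCT genes had one. No partner was counted among the 11 19S non-ATPase genes, and each other role had 1 or 2. Psmd13, a non-ATPase gene, was left out because its start overlaps that of Sirt3. Differences between roles of so few genes were not tested. Psmc2 was paired with Dnajc2, a ribosome-associated chaperone, at 32 bp. Psma2 was paired with Mrpl32, a subunit of the mitochondrial ribosome, at 75 bp, and Psma7 with Ss18l1, a chromatin remodelling subunit, at 76 bp. The closest pairs thus joined proteasome genes to genes of other pathways. Psmc5 was paired with Ftsj3, a ribosomal RNA methyltransferase, at 75 bp, Psmb1 with Tbp, the TATA-binding protein, at 137 bp, and Psmg2 with Cep76, a centrosomal protein, at 263 bp. Only 2 partners act in protein turnover. Psmd10 was paired with the autophagy protease gene Atg4a at 179 bp, and Psme2 with Rnf31, a ubiquitin ligase of the linear chain complex, at 595 bp.

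A single interval covered the 5′ ends of both gene records in all 8 pairs, as it did for 1284 of the 1487 coding genes with a partner (86.3%). At Psmd10 and Psme2 that interval ended 18 and 8 bp before the principal start. The median width of the widest promoter peak was 4506.5 bp for the 8 genes with a partner and 3229 bp for the 36 with a peak and no partner. Over all coding genes these medians were 3941 and 3324 bp. Psmb1 met the definition by its gene record, and its principal transcript begins 1453 bp further downstream. The pairs did not all lie under wide peaks, since the shared interval of Psmd10 and Atg4a was 913 bp, that of Psme2 and Rnf31 1789 bp and that of Psma2 and Mrpl32 2356 bp. A further 3 head-to-head arrangements fell outside the definition. Psma4 overlapped the first 208 bp of AY074887, Psmd13 overlapped the first 341 bp of Sirt3, the gene of a mitochondrial sirtuin, and Psmb3 and Pcgf2 began 2902 bp apart. Each of these 3 pairs also shared an interval, including the widest and the next widest of the set. In all, promoter peaks of 14 proteasome genes contained the start of another coding gene. The share over all coding genes was not computed for this count, so it does not set the proteasome genes apart.

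The bases between the starts are shown for 6 of the pairs, because this is the shared promoter that the single interval spans. They read 5′ to 3′ towards the proteasome gene (GRCm38), and capitals mark matches to 6 motifs that are described with the promoter search. The positions are chr5:21785252-21785282 on the plus strand for Psmc2, chr13:14613166-14613239 on the plus strand for Psma2, chr2:180042434-180042508 on the minus strand for Psma7, chr11:106256080-106256153 on the plus strand for Psmc5, chr17:15499752-15499887 on the minus strand for Psmb1 and chrX:140956729-140956906 on the minus strand for Psmd10.
Psmc2 with Dnajc2: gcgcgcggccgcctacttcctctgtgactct
Psma2 with Mrpl32: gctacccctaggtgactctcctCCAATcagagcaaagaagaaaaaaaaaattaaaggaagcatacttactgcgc
Psma7 with Ss18l1: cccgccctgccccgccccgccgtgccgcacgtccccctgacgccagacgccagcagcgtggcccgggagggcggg
Psmc5 with Ftsj3: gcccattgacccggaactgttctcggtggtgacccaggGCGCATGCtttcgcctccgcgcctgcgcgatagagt
Psmb1 with Tbp: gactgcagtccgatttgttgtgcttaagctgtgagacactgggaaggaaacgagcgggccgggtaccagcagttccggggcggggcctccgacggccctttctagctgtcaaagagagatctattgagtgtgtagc
Psmd10 with Atg4a: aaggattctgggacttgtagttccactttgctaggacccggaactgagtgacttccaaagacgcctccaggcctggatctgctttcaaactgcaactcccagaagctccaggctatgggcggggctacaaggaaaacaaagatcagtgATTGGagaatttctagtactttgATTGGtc
The stretch between Psma2 and Mrpl32 held CCAAT and that between Psmd10 and Atg4a held it on the other strand at 2 positions. The stretch between Psmc5 and Ftsj3 held GCGCATGC. No searched motif was found in the stretches of Psmc2, Psma7 and Psmb1.

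**Figure D4:**
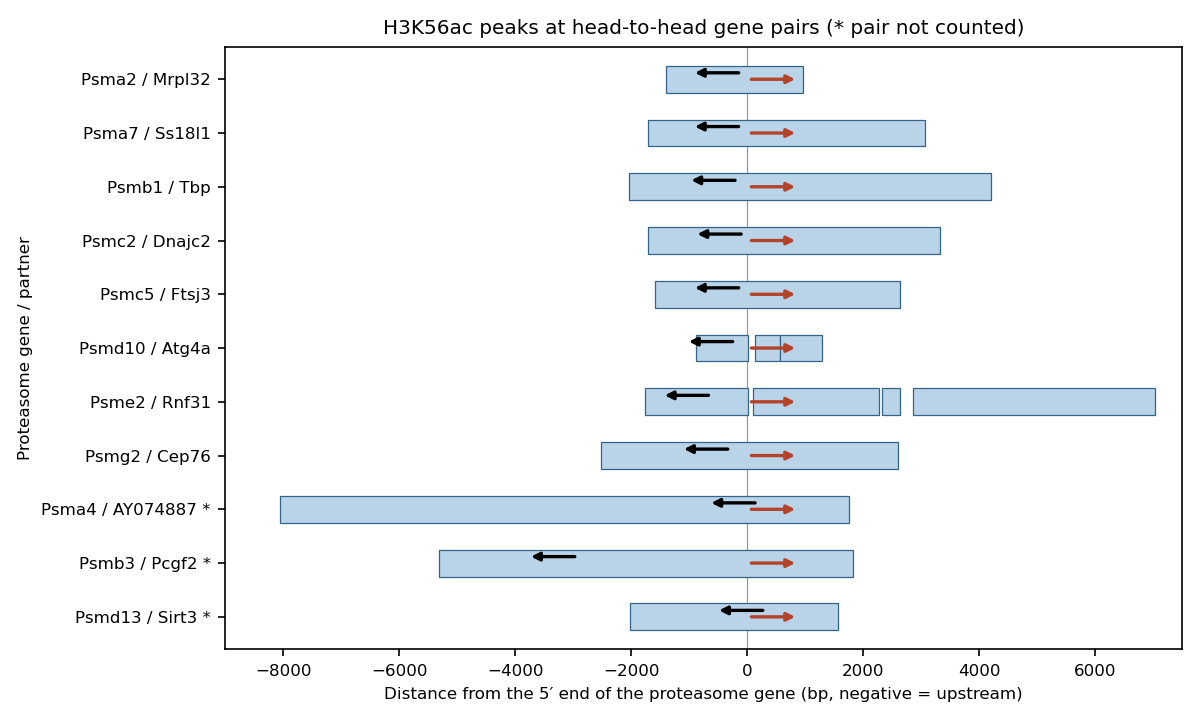
H3K56ac intervals (blue bars) at 11 head-to-head pairs by distance in bp from the 5′ end of the proteasome gene, with the direction of the proteasome gene as a red arrow and that of its partner as a black arrow. In each of the 8 counted pairs and of the 3 pairs marked with an asterisk, one bar holds both 5′ ends.

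Promoter sequence was then searched on both strands from 250 bases before to 50 after the principal start for 6 motifs. The core of the element that NFE2L1 and NFE2L2 recognise, TGACNNNGC, was found at 7 of 45 proteasome promoters (15.6%), against 12.6% of all coding promoters. The NF-Y motif CCAAT was found at 17 (37.8%, all promoters 38.1%). In this window the share of both motifs was near that of coding genes at large, and for NFE2L1 a longer window, given with its sites, moved it to 35.6% against 21.7%. The ETS motif CCGGAAG was found at 16 (35.6%), against 11.2% of all coding promoters and 17.4% of those whose principal start lay in a peak. The YY1 motif AAGATGG was found at 9 of the 45 (all promoters 6.51%, those in a peak 7.08%), the NRF1 motif GCGCATGC at 4 (8.89%, all promoters 3.69%) and the heat shock factor motif GAANNTTC at 1 (2.22%, all promoters 7.32%). The differences were not tested, and a match describes letters and not binding.

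**Figure D5:**
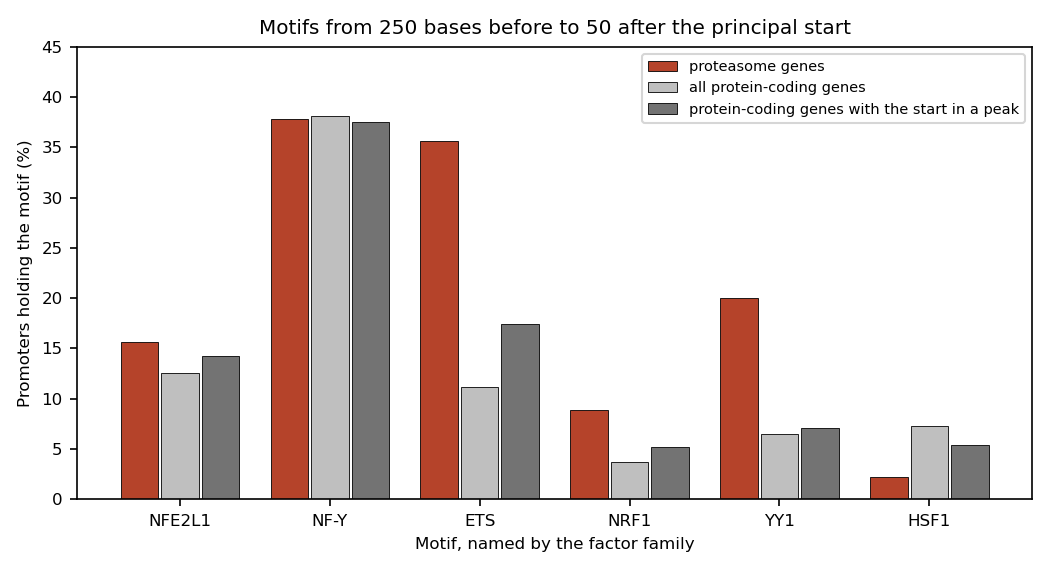
Share of promoters (%) that held each of 6 motifs among the 45 proteasome genes (red), all 21938 protein-coding genes (light grey) and the 12598 protein-coding genes whose principal start lay in a peak (dark grey). The red bar stands above both grey bars for ETS, NRF1 and YY1, slightly above for NFE2L1, level for NF-Y and below for HSF1.

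The NFE2L1 motif was carried by 3 of 9 beta genes (Psmb2, Psmb5 and Psmb6), by the ATPase gene Psmc6, by the non-ATPase genes Psmd7 and Psmd12 and by the chaperone gene Psmd9, and by no alpha, activator or Psmg gene. Among the beta genes it lay at the start itself in Psmb2 and 20 and 38 bases upstream in Psmb5 and Psmb6. Psmb5 and Psmb6 encode catalytic subunits. The sites that lie wholly upstream are shown with 10 bases on either side, 5′ to 3′ on the strand of the gene (GRCm38), with the motif in capitals as it reads on that strand. Their positions are chr14:54618024-54618052 on the minus strand for Psmb5, chr11:70525338-70525366 on the plus strand for Psmb6, chr14:45329587-45329615 on the plus strand for Psmc6, chr8:107588572-107588600 on the minus strand for Psmd7, chr5:123228149-123228177 on the plus strand for Psmd9 and chr11:107479271-107479299 on the plus strand for Psmd12.
Psmb5: cgtgaagttgTGACGTCGCggcgttgcca
Psmb6: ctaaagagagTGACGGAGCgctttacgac
Psmc6: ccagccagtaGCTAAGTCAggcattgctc
Psmd7: tcaatgccaaGCTTCGTCAatagcctaag
Psmd9: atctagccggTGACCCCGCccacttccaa
Psmd12: gagatgttctGCTGTGTCAcatttgcccc
The motif lay on the strand of the gene in Psmb5, Psmb6 and Psmd9 and on the other strand in Psmc6, Psmd7 and Psmd12. All 7 promoters with the motif had their principal start in a peak, as did 42 of all 45 proteasome genes. The widths of the 7 genes ranged from 1889 bp at Psmb6 to 3639 bp at Psmb2. In a window from 500 bases before to 100 after the start the motif was found at 16 proteasome promoters (35.6%) and at 21.7% of all coding promoters. In that window the carriers included the alpha genes Psma1 and Psma2, the activator gene Psme4 and Psmg2. The absence from these roles thus held for the shorter window only.

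The 16 carriers of the ETS motif were then listed by role. They were 4 of 6 ATPase genes (Psmc1, Psmc2, Psmc3 and Psmc6) and 6 of 11 non-ATPase genes (Psmd2, Psmd4, Psmd6, Psmd7, Psmd11 and Psmd12). The others were 2 of 8 alpha genes (Psma6 and Psma8), 2 of 4 activator genes (Psme3 and Psme4) and 2 of 4 chaperone genes of the core (Psmg1 and Psmg3). None of the 9 beta genes and none of the 3 chaperone genes of 19S assembly held it, against a share of 11.2% over all coding promoters. The roles hold few genes, and differences between them were not tested. Psma8 thus held this motif without a peak. The sites wholly upstream of the start are shown in the same way, except that of Psma8, whose sequence is not reported here.
Psma6 (chr12:55398683-55398709, plus strand): gagccaccacCCGGAAGcccgcggacc
Psmc2 (chr5:21785181-21785207, plus strand): ccagtgagcaCTTCCGGgatggggctc
Psmc3 (chr2:91053952-91053978, plus strand): cctcccgcctCTTCCGGttgtgcagca
Psmc6 (chr14:45329714-45329740, plus strand): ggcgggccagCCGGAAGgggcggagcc
Psmd2 (chr16:20651616-20651642, plus strand): ccgcagggcgCTTCCGGtctggaggac
Psmd4 (chr3:95042723-95042749, minus strand): tacagctgttCCGGAAGctgctgcgaa
Psmd11 (chr11:80428594-80428620, plus strand): gagggcgggtCTTCCGGgtgtgtgttt
Psme3 (chr11:101316096-101316122, plus strand): ggcacaaggcCCGGAAGctccgacagc
Psmg1 (chr16:95991013-95991039, minus strand): tcgcggcggaCCGGAAGctcttaggtt
These sites lay between 21 and 125 bases upstream of the principal start. The motif was read on the strand of the gene at Psma6, Psmc6, Psmd4, Psme3 and Psmg1 and on the other strand at Psmc2, Psmc3, Psmd2 and Psmd11.

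Genes outside the rule that belong to or act with the proteasome also had promoter peaks. All 24 examined, which include ubiquitin genes, shuttle factors, regulators and also Psmb8 and Psmb9, had one, against 65.4% of all coding genes. Their median width was 4147.5 bp, compared with 3390.5 bp for the proteasome genes and 3413 bp for all coding genes with a promoter peak. The wide end was held by the transcription factors Nfe2l2 and Nfe2l1, with 9686 and 8170 bp. The subunit genes Adrm1 and Sem1 had 2556 and 4998 bp, the maturation factor gene Pomp 3751 bp and the segregase gene Vcp 3368 bp.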

How the data were processed

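H3K56ac and input libraries of Control and Sirt6mKO MuSCs were described in 4 groups of 2 replicates, which the study's methods call biological. The authors trimmed reads with Trim Galore, kept unique bowtie alignments to mm10, removed duplicates with Picard, called peaks with MACS2, dropped blacklisted regions and merged overlapping peaks with GenomicRanges. FastQC, SAMtools and deepTools are also named in the submitters' processing notes. The score in the deposited list was 0 for every interval and held no measurement, with 0 columns per library. Read totals are stated in the study for each library but were not used here, since the list cannot be split by library. Merging widens and fuses intervals, and libraries that entered the merge are not given in the sources used here.

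Intervals were compared with GENCODE vM21 on GRCm38, counting from 1 (Python 3.11.15, numpy 2.4.6, matplotlib 3.10.9). Functions were tested on simulated intervals. A promoter peak lay within 1000 bp of any TSS of a gene, and the widest stood for the gene. The principal (APPRIS) coding transcript set the start for cover, reach, motifs and CpG, and gene records set it for pairs. These starts differed at 11 proteasome genes, by over 1 kb at 5. The CpG ratio was observed over expected. Printed bases came from the GRCm38 genome. RefSeq promoters (GRCm38.p6) of 37 proteasome genes served one alternative. Named in full were genes without a peak or with an uncovered start, and the 5 widest and 5 narrowest. So were those with partners or the NFE2L1 motif, and the pairs with a tissue-specific or immune member. Genes named for the ETS motif, starts shared with neighbours and near misses among the pairs were chosen after their values were seen. Members and lists were chosen with earlier results of these data known. The 4 processed pseudogenes with such symbols were left out. No p-value was computed because no value per sample was analysed.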

Additional observations from a re-analysis of the deposited data

How the results depend on the processing

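In all, 27 alternative settings were applied to 6 summary values, and 25 of them left the value near the one reported. Joining intervals less than 1 kb apart moved the median width to 4012.5 bp, with 4311 bp for all coding genes. Searching from 500 bases before to 100 after the start moved the share of promoters with the NFE2L1 motif to 35.6%, with 21.7% for all coding promoters. The share with a promoter peak was 91.1% when only the 5′ end of the gene record counted, because Psma6, Psmb11 and Psmd9 begin upstream of their peaks, and 97.8% under the 6 other settings. The share with a partner ranged from 15.6% to 22.2%. Settings that used the principal start, that allowed overlapping pairs, or that used gene records for motifs and CpG were chosen after seeing the data. No paired analysis was possible because the list holds no values per replicate, and Sirt6mKO was not compared with Control for the same reason. Reading of a missing peak is limited because the list holds no read counts at any interval.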
